A study of Mus musculus with 12 samples.

Results

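The 9 genes Stat2, Stat3, Stat5a, Stat5b, Stat6, Socs1, Socs2, Socs3 and Cish were taken by symbol from a table of 21956 mouse genes, and all 9 were measured in each of the 12 libraries. They belong to the families of the signal transducers and activators of transcription (STAT) and the suppressors of cytokine signaling (SOCS). The libraries hold poly(A)-selected RNA from brain tissue, and there were 3 mice in each of 4 groups. In mice with a hemorrhage the tissue lay within a radius of 1 to 2 mm of the hematoma. Sham-operated mice had no injury, and their tissue was taken by the same procedure. ICH-Fabp4fl/fl and ICH-Fabp4CKO mice were studied 48 h after intracerebral hemorrhage (ICH) induced by collagenase in the right striatum, while Sham-Fabp4fl/fl and Sham-Fabp4CKO mice were operated on without it. All 4 groups carried floxed Fabp4, which encodes a fatty acid carrier of fat cells and macrophages. Fabp4CKO mice also carried a tamoxifen-inducible Cre recombinase driven by Tmem119, a gene expressed in microglia, and were given tamoxifen on 7 days at 150 mg/kg per day, with surgery 14 days after the last dose. Whether the Fabp4fl/fl controls received tamoxifen, and the age of the floxed mice, are not given in the sources used here. The study asked how microglial Fabp4 bears on inflammation after ICH.

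STAT proteins are latent transcription factors. A cytokine brings its receptor chains together, JAK kinases bound to the receptor phosphorylate a STAT, and the STAT dimer moves to the nucleus and binds DNA. STAT3 carries signals of the interleukin-6 family and is known for its part in reactive astrocytes. STAT2 works with IRF9 downstream of type I interferons. STAT6 is used by interleukin-4 and interleukin-13, and STAT5A and STAT5B by growth hormone, prolactin and the receptors that share the common beta or gamma chain. SOCS proteins are feedback inhibitors, which are themselves encoded by STAT target genes and which block receptors or JAK kinases. SOCS3 acts mainly on receptors that use gp130, SOCS1 on interferon receptors and JAK kinases, and SOCS2 and CISH on growth hormone receptor and STAT5 signaling.

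The DNA windows before the start sites are shown for 3 genes that were higher after ICH, and a short stretch for Cish, since STAT dimers bind the palindrome TTCNNNGAA (the GAS motif), STAT6 also binds TTCNNNNGAA, and complexes of STAT2 and IRF9 bind the interferon-stimulated response element, searched for here as GAAANNGAAA. The sequences are from RefSeq on GRCm38.p6 and run 5′ to 3′ on the strand of the gene, with the bases of motif matches on either strand in capitals. For Socs3, Socs1 and Stat2 the window was the 250 bases before the RefSeq start site (Socs3 chr11:117969367-117969616 on the minus strand, Socs1 chr16:10785537-10785786 on the minus strand and Stat2 chr10:128270248-128270497 on the plus strand). For Cish it was 30 bases around the start (chr9:107296654-107296683 on the plus strand).
Socs3: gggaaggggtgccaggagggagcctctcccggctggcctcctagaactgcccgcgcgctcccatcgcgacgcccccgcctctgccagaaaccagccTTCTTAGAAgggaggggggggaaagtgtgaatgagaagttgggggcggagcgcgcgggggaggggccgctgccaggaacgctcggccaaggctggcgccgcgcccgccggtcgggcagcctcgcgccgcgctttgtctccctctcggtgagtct
Socs1: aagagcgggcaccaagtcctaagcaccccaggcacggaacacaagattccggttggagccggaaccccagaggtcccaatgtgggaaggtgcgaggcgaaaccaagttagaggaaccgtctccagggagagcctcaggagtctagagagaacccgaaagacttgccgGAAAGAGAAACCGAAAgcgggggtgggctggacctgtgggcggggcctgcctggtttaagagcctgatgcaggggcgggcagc
Stat2: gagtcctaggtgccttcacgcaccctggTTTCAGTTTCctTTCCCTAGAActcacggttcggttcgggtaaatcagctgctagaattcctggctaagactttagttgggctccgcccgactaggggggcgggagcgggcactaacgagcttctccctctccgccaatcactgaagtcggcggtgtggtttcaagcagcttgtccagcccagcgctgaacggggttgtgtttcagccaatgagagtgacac
Cish: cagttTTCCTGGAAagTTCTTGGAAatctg

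Socs3 held 1 GAS match, TTCTTAGAA, at -154 to -146 from the RefSeq start site. Socs1 held a pair of response element matches that overlap, GAAAGAGAAA at -83 to -74 and GAAACCGAAA at -77 to -68. Stat2 held a match to the response element on the other strand, printed as TTTCAGTTTC, at -222 to -213, and next to it a TTCNNNNGAA match, TTCCCTAGAA, at -210 to -201. Cish held 2 GAS matches, TTCCTGGAA at 1 to 9 and TTCTTGGAA at 12 to 20. No match to any of the 3 motifs was found in the windows of Stat3, Stat5a, Stat5b and Stat6, and Socs2 was not matched to a window. These windows covered 250 bases before and 50 after each RefSeq start site, and Stat5a and Stat5b had 2 windows each. Over 32851 RefSeq windows of 300 bases, 8.3% held a GAS match, 6.95% a TTCNNNNGAA match and 3.44% a GAAANNGAAA match. In the 250 bases before the start these shares were 7.02%, 5.85% and 2.98%. A match describes letters and not a bound site. The start sites of the 2 annotations differ for some genes. The principal GENCODE transcript starts 180 bases downstream of the RefSeq start for Socs3 and 78 bases downstream for Stat2. For Socs1 both starts are the same base (a distance of 0), while for Cish the GENCODE start lies upstream, at -633 bases. Among the genes without a match, the distance was 0 for Stat3 and Stat6. The GENCODE start lies upstream of both RefSeq starts of Stat5a, at -305 and -1133 bases. It lies 42 and 28053 bases downstream of those of Stat5b, so not every window was at the start of the principal transcript.

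Total counts ran from 15650813 to 22406216 per library. Fabp4 itself had 46, 63 and 24 counts in ICH-Fabp4fl/fl and 5, 3 and 10 in ICH-Fabp4CKO mice, against 2, 1 and 2 in Sham-Fabp4fl/fl and 0, 0 and 0 in Sham-Fabp4CKO mice. Markers of striatal neurons and of microglia were present in every group. ICH-Fabp4CKO mouse 1 had 1 count over Y-linked genes against 1302 to 2251 in the other 11 libraries. Its count is as in a female mouse, so ICH-Fabp4CKO is the group that appears to mix the sexes. The sex of the floxed mice is not given in the sources used here, and no comparison was adjusted for it. ICH-Fabp4fl/fl mouse 1 had 16.3% mitochondrial counts against 7.90% to 11.9% in the other libraries. ICH-Fabp4CKO mouse 2 was the least like the other mice of its group (mean Spearman correlation 0.916, against 0.939 to 0.996 for the other libraries). The summed level of 4 choroid plexus markers was 833 to 3113 CPM (read counts scaled to a common library size) in Sham-Fabp4fl/fl and 22.2 to 25.7 CPM in Sham-Fabp4CKO, 14.6 to 24.4 CPM in ICH-Fabp4fl/fl and 11.1 to 15 CPM in ICH-Fabp4CKO mice, so it separates Sham-Fabp4fl/fl from all other groups. Its part in the comparisons with Sham-Fabp4fl/fl was not tested.

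After ICH, 6 of the 9 genes rose in Fabp4fl/fl mice and none fell (edgeR's quasi-likelihood F test, Benjamini-Hochberg adjusted p under 0.05). These were Stat2, Stat3, Stat5a, Stat6, Socs1 and Socs3, and they rose 2.54-fold to 38.5-fold. Among all 14719 genes tested, 26.2% were called higher and 19.3% lower. The same 6 genes were those whose Sham and ICH mice did not overlap, which was true of 34.4% of all genes in the higher direction and 27.4% in the lower. Stat5b, Socs2 and Cish did not pass the test. The plot of CPM by mouse gives the values of all 9 genes. The library sizes behind CPM were scaled by the trimmed mean of M-values (TMM) method.

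**Figure D1:**
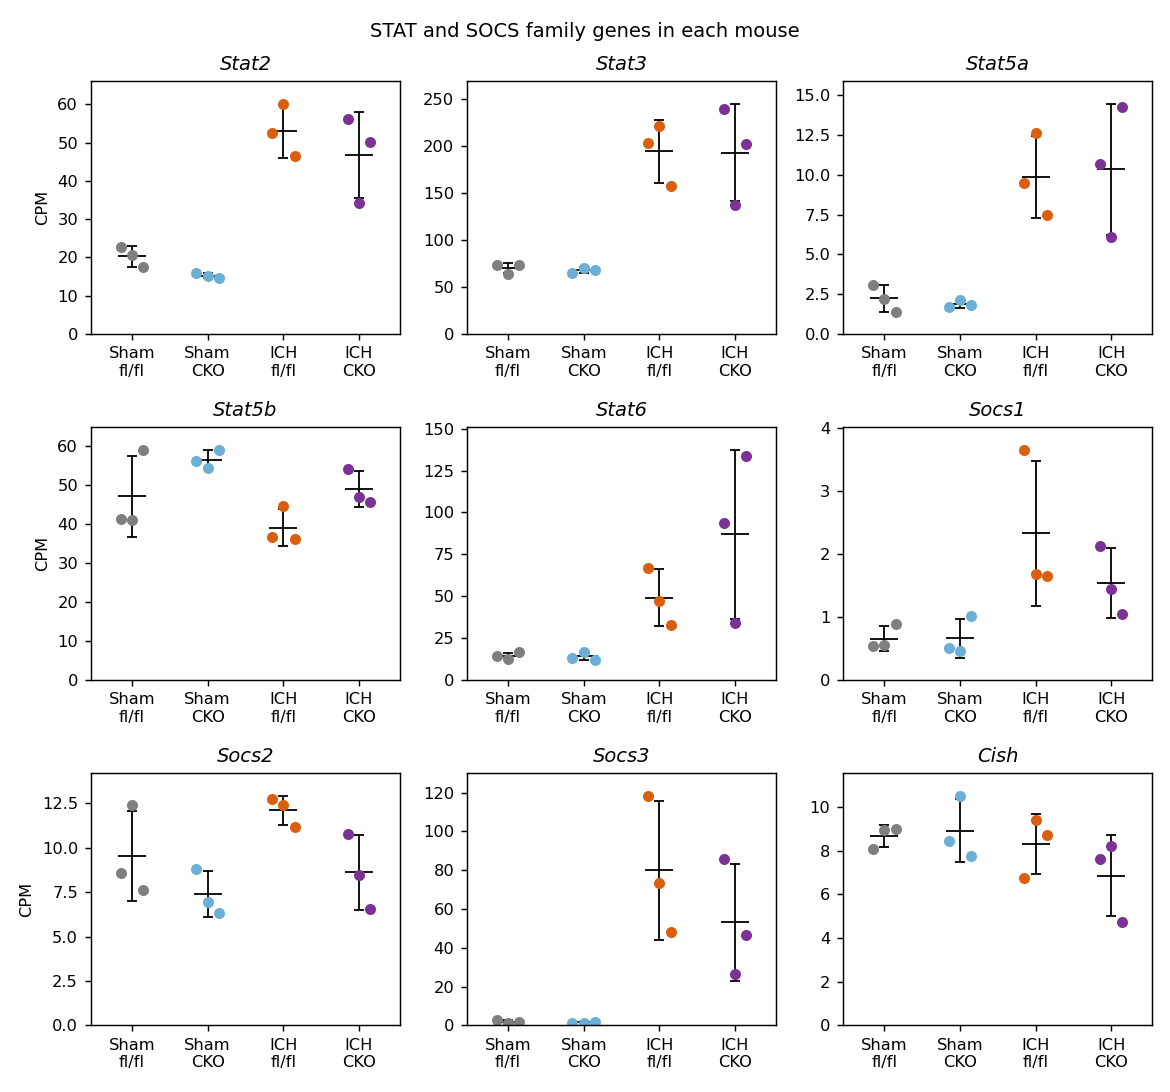
CPM (vertical axis, linear, from 0) of the 9 STAT and SOCS genes in each mouse of the 4 groups (horizontal axis), where each point is a mouse, the bar is the mean and the whiskers are the SD over 3 mice. For Stat2, Stat3, Stat5a, Stat6 and Socs3, and by a small margin for Socs1, every ICH mouse lies above every sham mouse, whereas Stat5b, Socs2 and Cish show no such separation over the 4 groups.

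Socs3, which encodes the feedback inhibitor of gp130 receptors, changed most of the 9. It had 2.89, 1.37 and 1.70 CPM in Sham-Fabp4fl/fl mice and 119, 73.3 and 48 CPM in ICH-Fabp4fl/fl mice. The ICH mice all lay far above the sham mice, but they differed among themselves, with mouse 1 the highest. The log2 fold change was 5.27 (standard error, SE, 0.43, adjusted p = 0.000350, edgeR). As raw counts, 60, 25 and 33 reads in the sham mice stood against 1684, 1176 and 903 after ICH.

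In Fabp4CKO mice Socs3 had 1.43, 1.48 and 1.70 CPM after sham surgery and 86.1, 26.4 and 46.7 CPM after ICH. The groups did not overlap, and mouse 2 was the lowest of the ICH mice. ICH against sham gave a log2 fold change of 5.11 (SE 0.50, adjusted p = 0.00478, edgeR). Leaving out mouse 2 gave 5.43, and leaving out mouse 1 gave 4.56.

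Stat3, the STAT through which gp130 receptors signal, had 73.6, 63.4 and 73.5 CPM in Sham-Fabp4fl/fl and 204, 222 and 158 CPM in ICH-Fabp4fl/fl mice. All ICH mice lay above all sham mice. Its log2 fold change was 1.43 (SE 0.17, adjusted p = 0.000882, edgeR). In Fabp4CKO mice the levels were 64.5, 70.6 and 67.9 CPM after sham surgery and 240, 138 and 202 CPM after ICH. Again no ICH mouse came near a sham mouse, and mouse 2 was the lowest. The log2 fold change there was 1.52 (SE 0.22, adjusted p = 0.00768, edgeR), and the call was lost without Sham-Fabp4CKO mouse 1 (adjusted p = 0.0511) or mouse 3 (adjusted p = 0.0507).

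Stat2, which encodes a transducer of type I interferon signals, had 22.8, 20.7 and 17.4 CPM in Sham-Fabp4fl/fl and 52.4, 60.1 and 46.4 CPM in ICH-Fabp4fl/fl mice. The groups were well separated. Fitted over the 6 libraries, the log2 fold change was 1.34 (SE 0.16, adjusted p = 0.000882, edgeR). The Fabp4CKO mice had 15.9, 15.2 and 14.7 CPM after sham surgery and 56.1, 34.2 and 50.1 CPM after ICH. All 3 ICH mice lay above the sham mice, and mouse 2 was again the lowest of them. On the log2 scale the difference was 1.62 (SE 0.20, adjusted p = 0.00600, edgeR).

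Stat6, the STAT of interleukin-4 and interleukin-13, had 14, 12.3 and 16.2 CPM in Sham-Fabp4fl/fl and 66.9, 46.8 and 32.9 CPM in ICH-Fabp4fl/fl mice. Every ICH mouse exceeded every sham mouse. This was a log2 fold change of 1.74 (SE 0.25, adjusted p = 0.00201, edgeR). In Fabp4CKO mice Stat6 had 13.2, 16.3 and 12 CPM after sham surgery and 93.4, 33.6 and 134 CPM after ICH. The lowest of these ICH mice, mouse 2, still lay above all sham mice, but the spread between mice was wide (87.0 ± 50.4 CPM, SD, n = 3). The test gave a log2 fold change of 2.66 (SE 0.50, adjusted p = 0.0134, edgeR). That call was lost without Sham-Fabp4CKO mouse 1, 2 or 3 (adjusted p = 0.0671, 0.0607 and 0.0676) and without ICH-Fabp4CKO mouse 1 (adjusted p = 0.0524).

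Stat5a encodes 1 of the 2 closely related STAT5 proteins. It had 3.08, 2.19 and 1.39 CPM in Sham-Fabp4fl/fl and 9.50, 12.6 and 7.44 CPM in ICH-Fabp4fl/fl mice. The groups did not overlap. The log2 fold change was 2.10 (SE 0.34, adjusted p = 0.00322, edgeR). In Fabp4CKO mice it had 1.66, 2.10 and 1.79 CPM after sham surgery and 10.7, 6.08 and 14.3 CPM after ICH. All ICH mice were above the sham mice. ICH against sham gave a log2 fold change of 2.48 (SE 0.35, adjusted p = 0.00754, edgeR).

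Stat5b, which encodes the other STAT5 protein, had 41.4, 40.9 and 59.0 CPM in Sham-Fabp4fl/fl and 36.6, 44.5 and 36 CPM in ICH-Fabp4fl/fl mice. These groups overlapped. Fitted over the 6 libraries, the log2 fold change was -0.31 (95% interval -0.75 to 0.13, adjusted p = 0.205, edgeR). In Fabp4CKO mice it had 56.3, 54.4 and 59.1 CPM after sham surgery and 54.3, 46.9 and 45.7 CPM after ICH. The ICH mice all lay below the sham mice here, by a small margin. On the log2 scale the difference was -0.21 (95% interval -0.49 to 0.08, adjusted p = 0.188, edgeR).

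Socs1, the inhibitor of interferon receptors and JAK kinases, had the fewest reads of the 9 genes, with 11, 10 and 17 reads in the Sham-Fabp4fl/fl libraries and 52, 27 and 31 in the ICH-Fabp4fl/fl libraries. These were 0.530, 0.548 and 0.878 CPM against 3.66, 1.68 and 1.65 CPM. The groups did not overlap, and ICH mouse 1 stood above the others. This was a log2 fold change of 1.77 (SE 0.46, adjusted p = 0.0188, edgeR). The call was lost in some fits with 1 mouse fewer. The adjusted p was 0.0692 without Sham-Fabp4fl/fl mouse 1 and 0.0755 without Sham-Fabp4fl/fl mouse 2 (edgeR). It was 0.0558 without ICH-Fabp4fl/fl mouse 1, the library with the high mitochondrial share. A smaller group cannot be told apart here from the effect of the library left out. In Fabp4CKO mice Socs1 had 0.509, 0.448 and 1.01 CPM after sham surgery and 2.13, 1.44 and 1.04 CPM after ICH. The lowest ICH mouse and the highest sham mouse were almost level. Socs1 passed the filter on low counts here only with the ICH mice. The test gave a log2 fold change of 1.22 (SE 0.46) and did not pass (adjusted p = 0.0764, edgeR).

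Socs2 and Cish, the inhibitors of growth hormone and STAT5 signaling, did not pass in either genotype. Socs2 had 8.58, 12.4 and 7.64 CPM in Sham-Fabp4fl/fl and 12.7, 12.4 and 11.2 CPM in ICH-Fabp4fl/fl mice. The groups overlapped through Sham mouse 2, and the log2 fold change was 0.30 (95% interval -0.21 to 0.82, adjusted p = 0.283, edgeR). Socs2 in Fabp4CKO mice had 8.83, 6.94 and 6.35 CPM after sham surgery and 10.8, 8.47 and 6.56 CPM after ICH, with a log2 fold change of 0.22 (95% interval -0.36 to 0.81, adjusted p = 0.468, edgeR). Cish had 8.10, 8.93 and 8.99 CPM in Sham-Fabp4fl/fl and 6.76, 9.42 and 8.72 CPM in ICH-Fabp4fl/fl mice. The sham and ICH mice overlapped, and the log2 fold change was -0.10 (95% interval -0.57 to 0.38, adjusted p = 0.709, edgeR). Cish in Fabp4CKO mice had 8.46, 10.5 and 7.77 CPM after sham surgery and 7.63, 8.21 and 4.76 CPM after ICH, with a log2 fold change of -0.38 (95% interval -1.0 to 0.24, adjusted p = 0.262, edgeR). The intervals of both genes leave out the rises measured for Stat2, Stat3, Stat5a, Stat6 and Socs3 in the same genotype.

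In Fabp4CKO mice, then, 5 of the 9 genes rose after ICH (Stat2, Stat3, Stat5a, Stat6 and Socs3) and none fell, where 24.5% of the 14737 genes tested were called higher and 11.1% lower. The sham and ICH mice did not overlap for 7 of the 9, 6 of them higher and 1 (Stat5b) lower, against 33.2% and 28.9% of all genes. The number called fell to 3 without Sham-Fabp4CKO mouse 1 or mouse 3. Without ICH-Fabp4CKO mouse 2 it stayed at 5, and without ICH-Fabp4CKO mouse 1 it was 4. Where the number fell, a smaller group cannot be told apart from the effect of the library left out. The plot of fold changes in each genotype sets the 9 genes side by side.

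**Figure D2:**
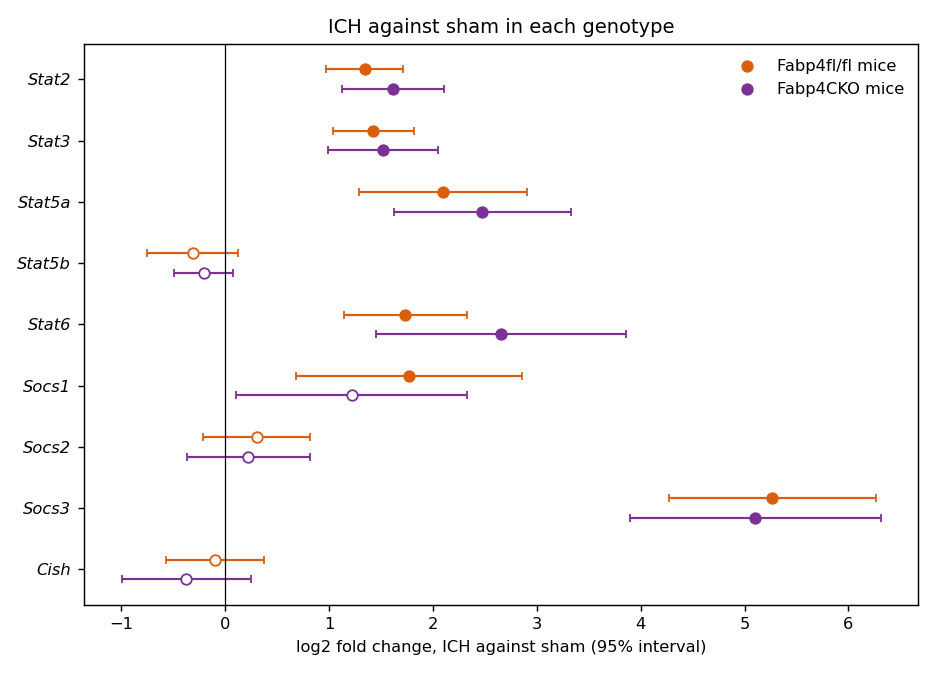
Log2 fold change of ICH against sham (horizontal axis) for each of the 9 genes (vertical axis) in Fabp4fl/fl (orange) and Fabp4CKO (purple) mice, with 95% intervals from edgeR and filled points where the adjusted p was under 0.05. Socs3 lies at 5.27 and 5.11, the other called genes between 1.34 and 2.66, and Stat5b, Socs2 and Cish have intervals that include 0.

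All of these are levels in bulk tissue, in which fewer cells of a type and less RNA per cell cannot be told apart. The summed level of 5 microglial markers was 304 to 370 CPM in Sham-Fabp4fl/fl, 306 to 345 CPM in Sham-Fabp4CKO, 1173 to 1326 CPM in ICH-Fabp4fl/fl and 1289 to 3886 CPM in ICH-Fabp4CKO mice. All 5 of these markers were higher after ICH in Fabp4fl/fl mice. In ICH-Fabp4CKO mice the microglial sum was lowest in mouse 2 and highest in mouse 3, as was the level of Stat6. Mouse 2 had the lowest level of 5 of the 9 genes in that group (Socs3, Stat2, Stat3, Stat5a and Stat6), and its neuronal marker sum, 2857 CPM, was above those of the other 2 mice of the group, 1335 and 1006 CPM. The neuronal markers summed to 3107 to 3880 CPM in Sham-Fabp4fl/fl and 847 to 2114 CPM in ICH-Fabp4fl/fl mice. The endothelial markers summed to 182 to 193 CPM in Sham-Fabp4fl/fl, 420 to 960 CPM in ICH-Fabp4fl/fl and 222 to 321 CPM in ICH-Fabp4CKO mice. The neutrophil markers summed to 0.876 to 1.5 CPM in Sham-Fabp4fl/fl, 4.57 to 20.5 CPM in ICH-Fabp4fl/fl, where Ly6g was at 0 in all 3 mice, and 11.9 to 95.3 CPM in ICH-Fabp4CKO mice. The monocyte markers summed to 0.723 to 1.54 CPM in Sham-Fabp4fl/fl, 0.448 to 0.644 CPM in Sham-Fabp4CKO, 29.0 to 86.2 CPM in ICH-Fabp4fl/fl and 30.9 to 116 CPM in ICH-Fabp4CKO mice, and all 4 of them were called higher after ICH in both genotypes. The oligodendrocyte markers summed to 16952 to 26918 CPM in ICH-Fabp4fl/fl and 6613 to 10526 CPM in ICH-Fabp4CKO mice, which did not overlap, but 0 of these 4 markers were called between the ICH groups (edgeR). The part of these cell types in the levels of the STAT and SOCS genes was not tested.

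Levels of different genes were compared as CPM per kilobase of the principal GENCODE transcript, as an approximate scale. In Sham-Fabp4fl/fl mice Stat3 was the highest at 15.5 ± 1.29 CPM per kb (SD, n = 3), followed by Stat5b at 9.04 ± 1.98, and neither overlapped its neighbor in the order. Stat2 (4.62 ± 0.618), Socs2 (4.29 ± 1.13) and Stat6 (3.75 ± 0.517) followed, and each of them overlapped the next. Cish (3.04 ± 0.175) came below Stat6 with no overlap. Socs3 (0.779 ± 0.313) and Stat5a (0.572 ± 0.217) overlapped each other, and Socs1 was the lowest at 0.224 ± 0.0674 CPM per kb.

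After ICH the order was different. In ICH-Fabp4fl/fl mice Stat3 (43.1 ± 7.35 CPM per kb) and Socs3 (31.3 ± 14) were the highest and overlapped. Socs3 had thus moved from the seventh place to the second. Stat6 (12.9 ± 4.52) and Stat2 (12.1 ± 1.56) came next, overlapping each other, and both were above Stat5b (7.49 ± 0.911), which had been above them in the sham mice. In ICH-Fabp4CKO mice the ranges of Stat3 (42.8 ± 11.5), Stat6 (23.0 ± 13.4), Socs3 (20.8 ± 11.9), Stat2 (10.7 ± 2.58) and Stat5b (9.39 ± 0.888) each overlapped the next in this order, while Stat3 lay above Stat2 and Stat5b with no overlap.

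Stat5a and Stat5b lie beside each other on chromosome 11 and share sequence, and they were the only 2 of the 9 genes with deposited counts that were not whole numbers. The counts of the pair summed to a whole number, within 0.01, in all 12 libraries, as it does where reads that match both genes are divided between them. Of the 100-base words in their GENCODE transcripts, 3.44% of those of Stat5a occurred in Stat5b and 4.79% of those of Stat5b in Stat5a. For 50-base words the shares were 8.21% and 11%.

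Stat5a took 2.34% to 6.97% of the reads of the pair in Sham-Fabp4fl/fl mice and 2.89% to 3.75% in Sham-Fabp4CKO mice. After ICH its share was 17.1% to 22.0% in Fabp4fl/fl and 11.5% to 23.8% in Fabp4CKO mice, above every sham mouse. The sum of the pair, which is mostly Stat5b and so does not test the rise of Stat5a, did not pass the test. It was 49.3 ± 9.64 CPM (SD, n = 3) in Sham-Fabp4fl/fl and 48.9 ± 7.24 CPM in ICH-Fabp4fl/fl mice, a log2 fold change of -0.05 (SE 0.18, adjusted p = 0.827, edgeR). In Fabp4CKO mice the log2 fold change of the sum was 0.02 (SE 0.12, adjusted p = 0.885, edgeR). Stat3 and Stat5a also overlap by 72 bases at opposite strands, and Stat6 and Nab2 by 40 bases, where a library kit that does not keep strand cannot assign reads to 1 of the 2 genes.

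**Figure D3:**
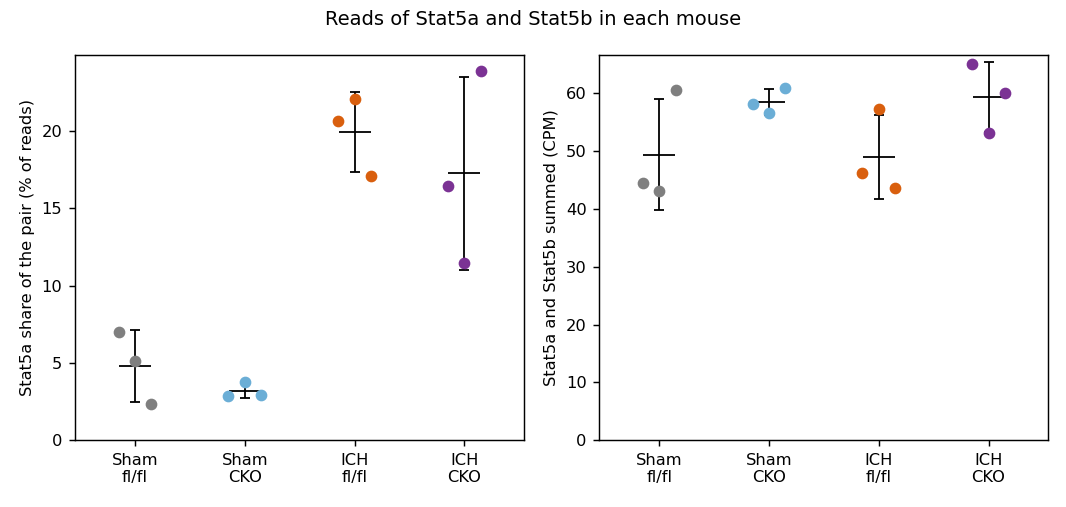
Share of the reads of Stat5a and Stat5b that were counted for Stat5a (left, % of reads) and the summed level of both genes (right, CPM) in each mouse, with the mean and SD over 3 mice per group. The share was at most 6.97% in sham mice and at least 11.5% in ICH mice, while the summed level of the groups overlapped between sham and ICH in each genotype.

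The rest of the JAK-STAT pathway was followed through 8 lists of genes, here for ICH-Fabp4fl/fl against Sham-Fabp4fl/fl mice, for which the median log2 fold change over all 14719 genes was 0.02, with 26.2% called higher and 19.3% lower. A gene near 0 in the sham mice was tested only if it was high enough after ICH, so that its direction was set by the filter on low counts. This was so for 0 of the 9 STAT and SOCS genes in this comparison. Of 19 ligands, 14 lay below the filter and 5 were called higher, but 3 of the 5 (Clcf1, Cntf and Osm) had passed the filter only with the ICH mice, so the count does not describe the list. Clcf1, a ligand of the ciliary neurotrophic factor receptor, went from 0.346 ± 0.163 to 11.4 ± 6.69 CPM (log2 fold change 4.96, adjusted p = 0.000793, edgeR). Lif, which encodes leukemia inhibitory factor and signals through gp130, went from 0.582 ± 0.0361 to 6.15 ± 2.70 CPM (log2 fold change 3.33, adjusted p = 0.00111, edgeR). The interleukin-4 and interleukin-13 genes lay below the filter in every comparison. Il6 also lay below it here, with 4, 4 and 0 reads in Sham-Fabp4fl/fl and 30, 13 and 6 reads in ICH-Fabp4fl/fl mice, which DESeq2 called higher (log2 fold change 2.87, adjusted p = 0.0226). In Fabp4CKO mice it had 0, 0 and 0 reads after sham surgery and 121, 23 and 23 reads after ICH, and it was called higher by edgeR (adjusted p = 0.0300), having passed the filter only with the ICH mice.

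Of 24 receptor genes, 16 rose, 1 fell and 7 did not pass, with a median log2 fold change of 1.57. Il7r had passed the filter only with the ICH mice, and 15 of the other 23 rose. Il10ra, a chain of the interleukin-10 receptor, rose from 7.68 ± 0.467 to 36.3 ± 3.07 CPM (log2 fold change 2.2, adjusted p = 0.000287, edgeR). Csf2rb, the common beta chain, rose from 1.68 ± 0.769 to 43.1 ± 12.3 CPM (log2 fold change 4.62, adjusted p = 0.000350, edgeR). The receptor that fell was Prlr, the prolactin receptor, from 20.2 ± 13 to 1.02 ± 0.681 CPM (adjusted p = 0.00330, edgeR). It also fell in Fabp4CKO mice (log2 fold change -3.79, adjusted p = 0.0168, edgeR). The choroid plexus sum was 22.2 to 25.7 CPM in Sham-Fabp4CKO and 11.1 to 15 CPM in ICH-Fabp4CKO mice. Its part in the fall of Prlr was not tested in either genotype. Of the 4 JAK kinases 3 rose, among them Jak3 (log2 fold change 3.29, adjusted p = 0.000313, edgeR) and Tyk2 (1.43, adjusted p = 0.00153), and Jak1 did not pass. Of 14 other STAT, SOCS and inhibitor genes, 6 rose, 1 fell and 7 did not pass, and the median was 0.08. Stat4 had passed the filter only with the ICH mice, and 5 of the other 13 rose. The phosphatase gene Ptpn6 rose (log2 fold change 3.41, adjusted p = 0.000397, edgeR), and Socs7 fell from 94.7 ± 22.7 to 43.7 ± 17.0 CPM (adjusted p = 0.0219).

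Lists of known target genes were read beside the STAT that they belong to. Of 16 STAT3 targets 15 rose, with a median log2 fold change of 3.48, and 12 of the 13 that had passed the filter with the sham mice rose. Timp1, an inhibitor of matrix metalloproteinases and 1 of the other 3, rose from 0.572 ± 0.307 to 161 ± 72.4 CPM (adjusted p = 0.000305, edgeR), and Icam1, an adhesion molecule for leukocytes, from 3.53 ± 1.05 to 49.4 ± 13.9 CPM (adjusted p = 0.000350). All 11 interferon genes tested, of 12 listed, rose, and of these Mx1 alone had passed the filter only with the ICH mice. Examples were Mx1 (log2 fold change 4.50, adjusted p = 0.000305, edgeR) and Rsad2 (2.94, adjusted p = 0.000350), both antiviral. Of 8 STAT6 targets 3 lay below the filter and 5 were called higher, but Arg1, Ccl22 and Chil3 had passed the filter only with the ICH mice, so this count does not describe the list either. Arg1, which encodes arginase, went from 0.447 ± 0.0415 to 280 ± 282 CPM (adjusted p = 0.000641, edgeR), with an SD between mice as large as its mean. Chil3, a chitinase-like protein of macrophages, was at 0.181 ± 0.179 CPM in the sham and 18.1 ± 9.83 CPM in the ICH mice (adjusted p = 0.000760).

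Of the 7 STAT5 targets 2 rose, 1 fell and 4 did not pass, with a median log2 fold change of 0.36, and these shares were near those of all genes. The 2 that rose had passed the filter only with the ICH mice. Osm and Il2ra, a cytokine of the interleukin-6 family and a chain of the interleukin-2 receptor, were low in sham mice (0.0643 ± 0.111 and 0.104 ± 0.136 CPM) and reached 3.43 ± 2.12 and 1.24 ± 0.422 CPM (adjusted p = 0.00411 and 0.0136, edgeR). Pim2, a survival kinase, fell from 38.3 ± 4.95 to 19.6 ± 5.39 CPM (adjusted p = 0.0130). Several of these lists hold genes that leukocytes and microglia express, and the microglial, monocyte and neutrophil marker sums were higher in the same comparison. In Fabp4CKO mice, where 24.5% of all genes were called higher after ICH and 11.1% lower, 17 of 24 receptors were higher and 1 lower. There 15 of 16 STAT3 targets, 11 of 11 interferon genes and 3 of 6 STAT5 targets were higher. Some of these genes had passed the filter only with the ICH mice. Of those that passed it with the sham mice, 16 of 23 receptors and 12 of 13 STAT3 targets were higher. The same held for 9 of 9 interferon genes and 2 of 5 STAT5 targets. Between the ICH groups edgeR called 0 of the 88 list genes tested, as of all genes, while 10 had an unadjusted p under 0.05 and DESeq2 called 5 (Csf3r, Gfap, Igf1, Il11 and Timp1). Over all genes 12.2% had an unadjusted p under 0.05 and DESeq2 called 3.50%. Between the sham groups edgeR called 0 of 75, 13 had an unadjusted p under 0.05 and DESeq2 called 3 (Cdh1, Lepr and Lrg1). Over all genes these shares were 0.111%, 10.2% and 0.972%.

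**Figure D4:**
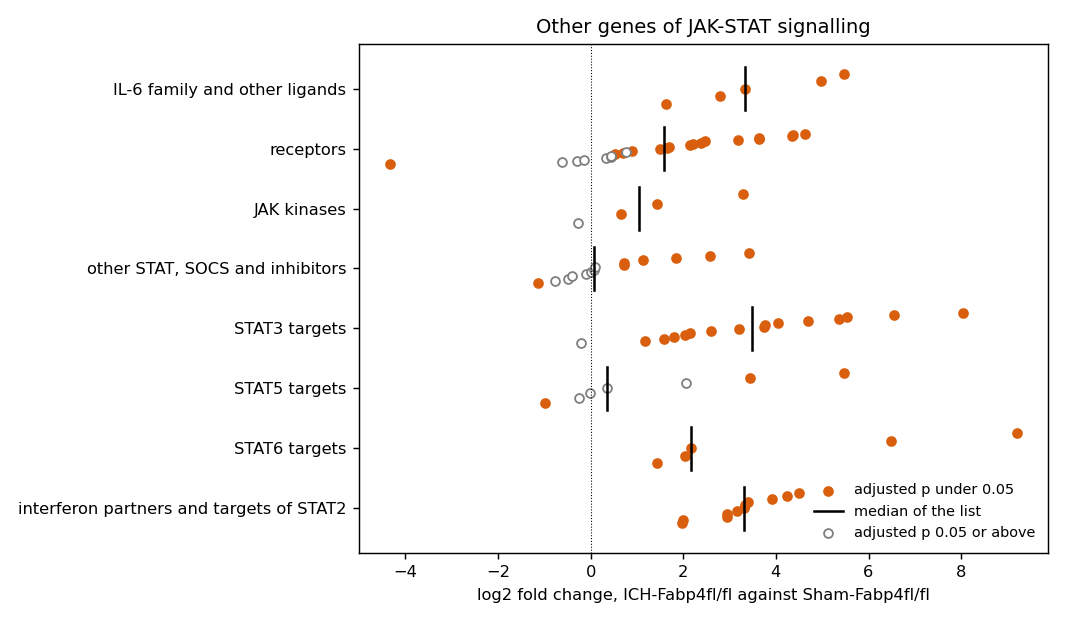
Log2 fold change of ICH-Fabp4fl/fl against Sham-Fabp4fl/fl mice (horizontal axis) for the tested genes of 8 lists (vertical axis), where each point is a gene, filled where the adjusted p was under 0.05, and the bar is the median of the list. The lists of STAT3 targets and interferon genes have medians of 3.48 and 3.32, whereas that of other STAT, SOCS and inhibitor genes lies at 0.08.

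The genotypes were compared within each surgery, to ask whether the STAT and SOCS genes differed without microglial Fabp4. Between ICH-Fabp4CKO and ICH-Fabp4fl/fl mice, 0 of the 9 genes passed the adjusted threshold (lowest adjusted p = 0.411, edgeR), 0 passed an unadjusted p of 0.05 and 0 passed with DESeq2. Of 14600 genes, 0.00% were called by edgeR, 12.2% had an unadjusted p under 0.05 and 3.50% of those tested were called by DESeq2. The mice did not overlap for 2 of the 9, against 19.8% of all genes. Stat5b was higher in all 3 ICH-Fabp4CKO mice (54.3, 46.9 and 45.7 CPM) than in the ICH-Fabp4fl/fl mice (36.6, 44.5 and 36 CPM), with a log2 fold change of 0.38 (95% interval -0.000453 to 0.76). Socs2 was lower (10.8, 8.47 and 6.56 against 12.7, 12.4 and 11.2 CPM), with a log2 fold change of -0.44 (95% interval -0.99 to 0.12).

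The precision of this comparison differed between the genes. For Socs3 the log2 fold change was -0.52 with a 95% interval of -1.69 to 0.64, and it ranged from -1.06 without ICH-Fabp4CKO mouse 1 to -0.16 without ICH-Fabp4fl/fl mouse 1. For Stat6 it was 0.90 (95% interval -0.32 to 2.11), and it ranged from 0.44 without ICH-Fabp4CKO mouse 3 to 1.29 without ICH-Fabp4CKO mouse 2. A change of Stat3 was measured as 0.05 (95% interval -0.56 to 0.66), of Stat2 as -0.12 (-0.65 to 0.41), of Stat5a as 0.13 (-0.73 to 0.99), of Socs1 as -0.53 (-1.64 to 0.58) and of Cish as -0.23 (-0.91 to 0.46). The intervals of Socs3, Stat6 and Socs1 include log2 changes beyond 1 or below -1, so that such differences were not resolved with 3 mice a group.

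Between the sham groups 0 of the 9 genes passed the adjusted threshold, where 0.111% of 14395 genes did, all of them lower in Sham-Fabp4CKO. The mice did not overlap for Stat2, which was lower in each Sham-Fabp4CKO mouse (15.9, 15.2 and 14.7 CPM) than in the Sham-Fabp4fl/fl mice (22.8, 20.7 and 17.4 CPM). Groups that did not overlap made up 14.8% of all genes. The log2 fold change of Stat2 was -0.40 (SE 0.12, adjusted p = 0.440, edgeR), and it was the 1 member of the 9 with an unadjusted p under 0.05, which 10.2% of all genes had. Without Sham-Fabp4fl/fl mouse 3, the library with the highest choroid plexus sum, Stat2 was called lower (-0.49, adjusted p = 0.0124, edgeR) and Stat5b higher (0.48, adjusted p = 0.00566, edgeR). Of the interferon genes listed with STAT2, 10 were tested and 0 passed (lowest adjusted p = 0.423, edgeR). Their log2 fold changes had a median of -0.77, with 10 below 0 and 5 at an unadjusted p under 0.05. Of all 14395 genes tested, 7135 lay below 0. Between the ICH groups, 10 of 11 interferon genes lay below 0 and 0 passed, with a median of -0.27. There 6397 of all 14600 genes lay below 0.

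**Figure D5:**
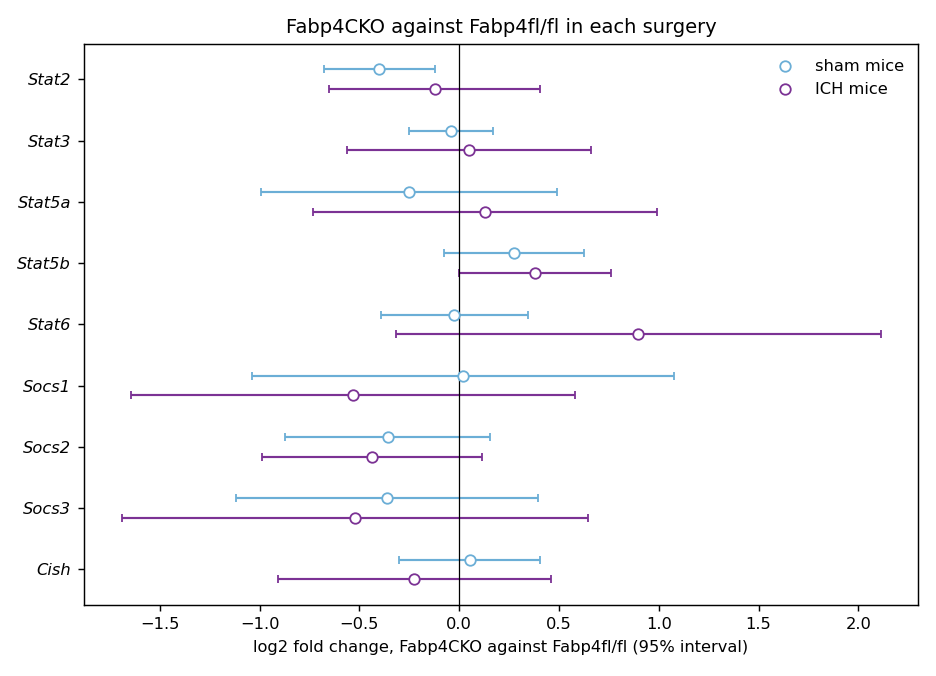
Log2 fold change of Fabp4CKO against Fabp4fl/fl mice (horizontal axis) for the 9 genes (vertical axis) after sham surgery (blue) and after ICH (purple), with 95% intervals from edgeR and open points since the adjusted p was 0.05 or above for all 9. The interval of Stat2 in sham mice lies below 0, from -0.68 to -0.12, and that of Stat6 after ICH is the widest, from -0.32 to 2.11.

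A test of whether the response to ICH itself differed between the genotypes (the interaction in a fit of all 12 libraries) called 0 of the 9 genes, and 0 had an unadjusted p under 0.05 (lowest adjusted p = 0.656, edgeR), where 0.0199% of 15089 genes were called and 9.94% had an unadjusted p under 0.05. The largest of the 9 was that of Stat6, at 0.87 on the log2 scale (SE 0.58, 95% interval -0.41 to 2.15), and it ranged from 0.42 without ICH-Fabp4CKO mouse 3 to 1.26 without ICH-Fabp4CKO mouse 2. For Socs3 it was -0.21 (95% interval -1.68 to 1.25) and for Stat3 0.04 (-0.57 to 0.66). Socs1, called after ICH in Fabp4fl/fl but not in Fabp4CKO mice, had an interaction of -0.60 (95% interval -2.09 to 0.88), so its response was not shown to differ.

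For each of the 6 genes called in Fabp4fl/fl mice, the 3 genes with the most similar profile were found among 15088 others, as the smallest root mean square difference of centered log2 CPM over the 12 libraries. For Stat3 they were Ampd3 (0.0872), Lrp10 (0.155) and Bag3 (0.156), and for Stat6 Maf (0.119), H6pd (0.158) and Tln1 (0.162). For Stat2 they were Cav2 (0.143), Icosl (0.162) and Cdc42se1 (0.167), and for Stat5a Hpgd (0.197), Shisa5 (0.211) and Irgm2 (0.213). The nearest genes were farther from Socs1, with Id1 (0.276), Adcy4 (0.320) and Podxl (0.322), and from Socs3, with Vim (0.285), Bcl3 (0.299) and Tnfsf8 (0.354). These distances describe 12 libraries that share the contrast of sham and ICH.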

How the data were processed

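The authors deposited an expected count per gene and library, unnormalized, as an estimator that divides shared reads gives it. These expected counts were rounded to whole numbers here. The submitters' processing notes name Bowtie2 2.2.8, HISAT2, StringTie 1.3.1 and DESeq2. The counting tool and the genome build are not given in the sources used here. Each library came from 1 mouse, and replicate libraries differed by more than sampling noise. The quasi-likelihood F test of edgeR 4.0.16 (R 4.3.3), after TMM scaling and filterByExpr (at least 10 counts, 15 in total), was run on the 2 groups compared, or on all 12 libraries for the interaction, with Benjamini-Hochberg adjustment over all genes. The 95% intervals use the moderated standard error. The test was run first on simulated data. DESeq2 1.42.0, other scalings, no filter, a replicate block, a joint fit and each library left out were alternatives. The genes and lists were chosen with earlier results of these data known. List genes were named as the 2 with the smallest p per direction among those called, except a gene not reported here. Windows came from RefSeq, and lengths and overlaps from GENCODE M21 (GRCm38). Figures were drawn with matplotlib.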

Additional observations from a re-analysis of the deposited data

How the results depend on the processing

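With 3 mice a group, the number of STAT and SOCS genes called varied more over the fits with 1 library left out than over the methods. The methods kept all mice, whereas leaving out a library also makes a group smaller. These ranges therefore cannot separate the effect of a single library from that of a smaller group. The 6 called in ICH-Fabp4fl/fl and the 5 in ICH-Fabp4CKO mice against their sham groups were also 6 and 5 with relative log expression scaling, total counts, DESeq2, no filter, the replicate block and all 12 libraries in one fit. Leaving out 1 library gave 5 to 6 and 3 to 5 genes. Without Sham-Fabp4fl/fl mouse 3, the comparison of the sham groups called 1 gene higher (Stat5b, log2 fold change 0.48, adjusted p = 0.00566, edgeR) and 1 lower (Stat2, -0.49, adjusted p = 0.0124), and otherwise 0, a range of 0 to 1 in each direction. In the list of other STAT, SOCS and inhibitor genes, 1 was lower in ICH-Fabp4fl/fl mice, but 4 with DESeq2, 3 with relative log expression scaling and 0 to 4 over the left-out libraries.

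Counting Stat5a and Stat5b together was an alternative chosen after seeing the data. Stat5a took at most 6.97% of the reads of the pair in sham mice and at most 23.8% in ICH mice. The sum therefore mostly follows Stat5b and cannot test the rise of Stat5a. After ICH the log2 fold change of the sum was -0.0535 in Fabp4fl/fl and 0.0229 in Fabp4CKO mice. Stat5a alone had 2.10 and 2.48, and Stat5b alone was below 0 in both. Between the sham groups the sum was at 0.26, where Stat5a alone had been below 0. Small fold changes turned sign under other settings. Stat3 between the ICH groups was -0.0099 with total counts and -0.0087 with all 12 libraries. Socs1 between the sham groups was -0.0057 with total counts. Over the libraries left out in turn, Cish ranged from -0.23 to 0.0291 after ICH in Fabp4fl/fl mice. Between the ICH groups the ranges were -0.27 to 0.0601 for Stat2, -0.14 to 0.24 for Stat3 and -0.18 to 0.40 for Stat5a. Between the sham groups they were -0.49 to 0.0496 for Stat5a, -0.16 to 0.0875 for Stat6, -0.44 to 0.30 for Socs1 and -0.0818 to 0.13 for Cish. For the interaction they were -0.12 to 0.24 for Stat3, -0.13 to 0.17 for Stat5b, -0.35 to 0.0418 for Socs2 and -0.72 to 0.21 for Socs3.

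The replicate numbers were not treated as pairs in the main fits. The correlation of same-numbered libraries ran from -0.575 to 0.311 over the 4 comparisons. For ICH-Fabp4fl/fl against Sham-Fabp4fl/fl mice it was 0.196, 0.0230 and 0.127, against a mean of -0.0571 for libraries with different numbers. So few libraries cannot exclude a pairing. With the number as a replicate block, the counts of called STAT and SOCS genes were 6, 5, 0 and 0 in the 4 comparisons, Socs1 between the sham groups turned to -0.0123, and 4 genes of the list of other inhibitors were lower in ICH-Fabp4fl/fl mice.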
